A study of Mus musculus with 6 samples.

Results

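Jag1, Notch1, Notch2, Notch3, Rbpj, Maml1, Hes1, Hes6 and Hey1 carry the Notch signal from a ligand on one cell to transcriptional repressors in its neighbour, and they are described here in mouse embryos at the 4-cell stage after knockdown of Son. These 9 genes were selected by symbol from the 46072 genes of the deposited tables, and all 9 were found. They were chosen with the difference between Son siRNA and control embryos already known, in which Hes1 stood out, so every comparison of these 9 genes between the groups is a description and not a test. Whole embryos at the 4-cell stage were put into lysis solution and sequenced with Smart-Seq2, which copies polyadenylated RNA along its whole length and does not record the strand. There were 3 libraries of embryos with siRNA against Son, injected into the zygote per the series' design text, and 3 libraries of embryos labelled control. The labels do not say what the control embryos received, which mouse strain was used, how many embryos each library holds or whether the libraries share a litter. The spread between libraries may therefore be partly technical.

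Notch receptors are single-pass membrane proteins. Binding of a Delta or Jagged ligand on an adjacent cell leads to their cleavage, first by an ADAM protease and then by gamma-secretase. The freed intracellular domain joins the DNA-binding protein RBPJ and a Mastermind coactivator, and this complex switches on genes such as those of the Hes and Hey families, which encode basic helix-loop-helix repressors. HES1 represses its own gene, and its level oscillates in several cell types. In the mouse blastocyst, Notch signalling acts together with the Hippo pathway in the outer cells that form the trophectoderm.

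The knockdown was visible in each library. Son had 41, 28.0 and 25.1 CPM (each gene's counts over the library total after TMM scaling, in the usual CPM unit) in Son siRNA libraries 1 to 3, against 249, 322 and 332 CPM in controls 1 to 3. Total estimated counts were 104634855 to 118865650 units per library, and 12 units, taken as 3 read pairs, correspond to 0.0906 to 0.125 CPM. Of 17788 genes tested over the whole table with edgeR's quasi-likelihood test, 160 were lower (0.899% of those tested) and 16 were higher (0.0899%) after siRNA at a Benjamini-Hochberg adjusted p under 0.05. All 9 Notch genes passed the filter on low counts. Without Son siRNA library 1, 2 or 3 edgeR called 0 genes in either direction (1084, 1474 and 1075 lower at an unadjusted p under 0.05, and 702, 874 and 658 higher), and without control 1, 2 or 3 it called 58, 231 and 79 genes lower. Hes1 was 1 of the 160 lower genes and 0 of the 9 were among the higher ones. At an unadjusted p under 0.05 edgeR had 1 of the 9 lower and 1 higher, against 8.86% lower and 5.88% higher of all tested genes. DESeq2's Wald test called 1 of the 9 lower and 0 higher at an adjusted p under 0.05, against 4.63% lower and 2.28% higher of all tested genes. Because the contrast was known when the genes were chosen, nothing is read from these counts.

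Seen per library, the 9 genes did not shift together. The groups did not overlap for 4 of them. Hes1 was lower in every Son siRNA library than in any control, as 11.6% of all tested genes were. Notch2, Jag1 and Maml1 were higher in every Son siRNA library than in any control, as 12.1% of all tested genes were. The median log2 fold change was -0.12 over the 9 genes and 0.02 over all 17788 genes, with 5 of the 9 below 0 and 4 above. Since whole embryos were lysed, fewer cells with a transcript and less transcript per cell cannot be told apart.

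**Figure D1:**
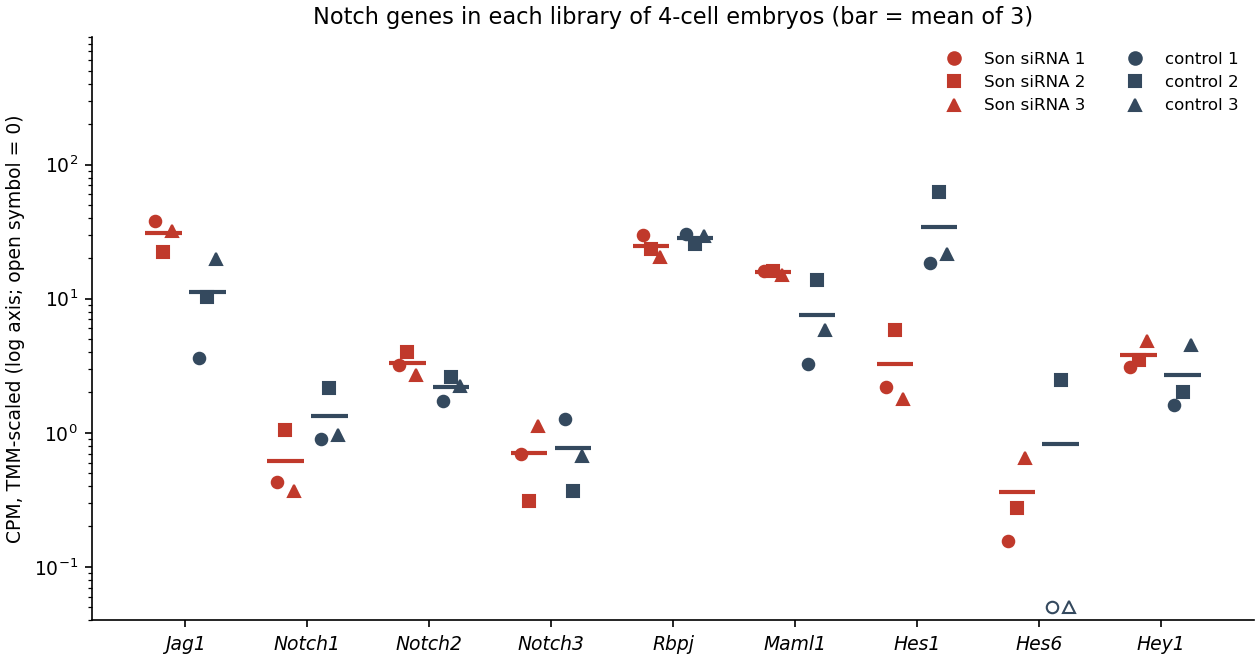
Level of each of the 9 genes in every library, in TMM-scaled CPM on a log axis. Points are single libraries, Son siRNA left of control, with bars at the mean of 3 and open symbols for a value of 0. Hes1 separates downward, with 1.80 to 5.81 CPM after siRNA and 18.5 to 62.1 CPM in controls. Jag1, Notch2 and Maml1 separate upward.

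The ligand gene Jag1 had the largest positive fold change of the 9. Jag1 encodes Jagged1, a membrane-bound ligand of the Notch receptors (ENSMUSG00000027276, chromosome 2, 137081456 to 137116644 on GRCm38). It had 38.2, 22.4 and 32.1 CPM in Son siRNA libraries 1 to 3, against 3.62, 10.3 and 19.9 CPM in controls 1 to 3. The siRNA libraries lay within 1.71-fold of each other, while the controls spanned 5.49-fold, with control 1 lowest and control 3 closest to the siRNA libraries. The mean was 30.9 ± 7.97 CPM after siRNA and 11.3 ± 8.17 CPM in controls (SD, n = 3 each), a log2 fold change of 1.45 (SE 0.544). Leaving out 1 library at a time gave 1.03 to 2.15, the lowest without control 1 and the highest without control 3.

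The receptor genes were low in all libraries, and only the level of Notch2 was separated between the groups. Notch2 (ENSMUSG00000027878, chromosome 3, 98013527 to 98150361) had 3.22, 3.98 and 2.69 CPM in Son siRNA libraries 1 to 3, against 1.72, 2.61 and 2.23 CPM in controls 1 to 3. The ranges of Notch2 did not overlap, but the gap between the lowest siRNA library and the highest control was narrow. Its mean was 3.30 ± 0.649 CPM after siRNA and 2.19 ± 0.446 CPM in controls, a log2 fold change of 0.59 (SE 0.425).

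Notch1 (ENSMUSG00000026923, chromosome 2, 26457903 to 26516663) had 0.429, 1.05 and 0.370 CPM in Son siRNA libraries 1 to 3, against 0.905, 2.16 and 0.955 CPM in controls 1 to 3. Its groups overlapped, because siRNA library 2 lay above controls 1 and 3, and the log2 fold change was -1.12 (SE 0.744). It was -1.74 without siRNA library 2 and -0.59 without control 2. Notch3 (ENSMUSG00000038146, chromosome 17, 32120820 to 32166852) had 0.693, 0.308 and 1.12 CPM in Son siRNA libraries 1 to 3, against 1.26, 0.370 and 0.675 CPM in controls 1 to 3, and the groups covered almost the same range. Its log2 fold change was -0.12 (SE 0.833), above 0 without siRNA library 2 (0.23), without control 1 (0.44) and with total-count scaling (0.25). Because the reads carry no strand, some exonic bases cannot be assigned with certainty. These are the 9.76% of Notch1 that overlap 0610009E02Rik and Gm13568 and the 6.03% of Notch3 that overlap the antisense gene Gm17276. The 5.02% of Notch2 exonic bases that overlap Gm42820, which lies on the same strand as Notch2, cannot be assigned with certainty either.

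Per length, Notch2 was the most abundant of the receptors in every library. It made up 69.9%, 71.8% and 58.9% of the summed Notch1, Notch2 and Notch3 level (CPM per kb of the longest annotated transcript) in Son siRNA libraries 1 to 3, against 39.3%, 47.6% and 53.5% in controls 1 to 3. The share of Notch1 was 10.3%, 21.0% and 8.98% after siRNA, against 22.9%, 43.6% and 25.3% in controls, so the groups did not overlap for either gene's share. The share of Notch3 overlapped between the groups, from 7.26% to 32.1% after siRNA and from 8.84% to 37.8% in controls. The summed level itself overlapped too, at 0.435 to 0.528 CPM per kb after siRNA and 0.397 to 0.522 CPM per kb in controls. These shares use the same counts as the fold changes above and rest on few reads.

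**Figure D2:**
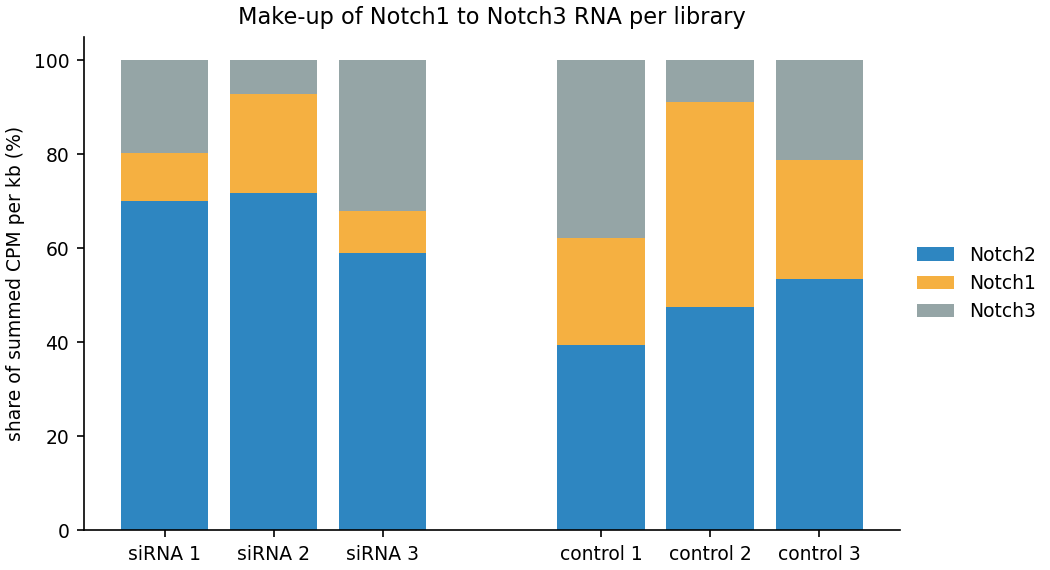
Share of each receptor gene in the summed CPM per kb of Notch1, Notch2 and Notch3, with 1 bar per library, Son siRNA left of control. Notch2 takes 58.9% to 71.8% after siRNA and 39.3% to 53.5% in controls, and Notch1 takes 8.98% to 21.0% after siRNA and 22.9% to 43.6% in controls.

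Of the nuclear partners, Rbpj overlapped between the groups, while Maml1 was higher in every Son siRNA library than in any control. Rbpj encodes the DNA-binding partner shared by all Notch receptors (ENSMUSG00000039191, chromosome 5, 53466152 to 53657362). It had 29.8, 23.6 and 20.6 CPM in Son siRNA libraries 1 to 3, against 30.2, 25.5 and 29.1 CPM in controls 1 to 3, and was the steadiest of the 9 among controls, which lay within 1.18-fold of each other. The log2 fold change of Rbpj was -0.20 (SE 0.266), and 0.11 with total-count scaling, which moved the median of all genes to 0.31, against 0.02 with TMM. Of the 100-base stretches of Rbpj transcripts 8.14% also occur in other genes.

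Maml1 encodes Mastermind-like 1, the coactivator that binds the complex of RBPJ and the Notch intracellular domain (ENSMUSG00000050567, chromosome 11, 50255634 to 50292311). It had 16.2, 16.1 and 15.1 CPM in Son siRNA libraries 1 to 3, against 3.25, 13.7 and 5.80 CPM in controls 1 to 3. The siRNA libraries lay within 1.08-fold of each other, the narrowest span of the 9 genes in that group, and just above control 2. The mean was 15.8 ± 0.637 CPM after siRNA and 7.58 ± 5.45 CPM in controls (SD, n = 3 each), a log2 fold change of 1.06 (SE 0.493). It was 1.81 without control 2 and 0.70 without control 1.

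Promoter windows from RefSeq (GRCm38.p6) were used for 7 of the 9 genes, all except Hes1 and Hey1, whose promoters were not analysed here. Each window covers 250 bases before to 50 bases after an annotated start. Those of Notch2, Jag1 and Maml1 are printed because these genes were higher in every Son siRNA library than in any control, and 1 of the Rbpj windows because it holds the letters that RBPJ itself binds. Capitals mark TGGGAA, the core that RBPJ recognises, CACGTG, the E-box, and CACNAG, the N-box bound by HES proteins, on either strand, and matches may overlap. These letters occur in 25.6%, 7.15% and 42.5% of all 32851 promoter windows. The Notch2 window (chr3:98013288-98013587, plus strand) holds 1 N-box match, the Jag1 window (chr2:137116471-137116770, minus strand) and the Maml1 window (chr11:50292287-50292586, minus strand) hold 0 matches to the 3 motifs, and the Rbpj window (chr5:53590096-53590395, plus strand) holds 2 matches to the RBPJ core. A match or its absence describes these windows only.
Notch2: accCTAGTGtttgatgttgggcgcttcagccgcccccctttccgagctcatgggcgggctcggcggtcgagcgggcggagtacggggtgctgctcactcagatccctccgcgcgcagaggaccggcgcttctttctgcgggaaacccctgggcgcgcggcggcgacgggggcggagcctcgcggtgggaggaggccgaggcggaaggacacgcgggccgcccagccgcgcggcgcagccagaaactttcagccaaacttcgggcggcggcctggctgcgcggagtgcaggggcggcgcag
Jag1: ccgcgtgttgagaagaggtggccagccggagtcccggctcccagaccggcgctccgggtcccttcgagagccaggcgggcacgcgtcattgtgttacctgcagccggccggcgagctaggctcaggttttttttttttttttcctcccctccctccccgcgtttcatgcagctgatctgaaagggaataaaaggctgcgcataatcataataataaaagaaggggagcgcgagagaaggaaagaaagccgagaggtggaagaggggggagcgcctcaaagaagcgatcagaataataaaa
Maml1: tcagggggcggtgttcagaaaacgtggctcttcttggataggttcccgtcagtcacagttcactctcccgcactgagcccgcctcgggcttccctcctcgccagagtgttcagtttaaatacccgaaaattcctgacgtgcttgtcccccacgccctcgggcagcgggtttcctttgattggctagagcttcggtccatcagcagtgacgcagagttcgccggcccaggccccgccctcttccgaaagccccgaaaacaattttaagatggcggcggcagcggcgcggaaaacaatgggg
Rbpj: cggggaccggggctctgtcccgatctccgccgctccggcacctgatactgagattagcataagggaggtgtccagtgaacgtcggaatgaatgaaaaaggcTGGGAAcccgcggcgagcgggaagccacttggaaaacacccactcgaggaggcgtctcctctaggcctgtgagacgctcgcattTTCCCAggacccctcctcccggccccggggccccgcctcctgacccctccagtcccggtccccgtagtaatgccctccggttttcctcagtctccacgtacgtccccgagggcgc

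Among the repressor genes Hes1 was far lower after Son siRNA, while Hey1 and Hes6 were not separated. Hes1 encodes a basic helix-loop-helix repressor and is the best known direct target of Notch (ENSMUSG00000022528, chromosome 16, 30064384 to 30067796). It had 2.20, 5.81 and 1.80 CPM in Son siRNA libraries 1 to 3, against 18.5, 62.1 and 21.5 CPM in controls 1 to 3. Each group had 1 library well above the other 2, siRNA library 2 and control 2, and the spans were alike at 3.23-fold after siRNA and 3.35-fold in controls. The log2 fold change was -3.38 (SE 0.636), and the mean after siRNA was 0.0961 of the control mean. No exonic base of Hes1 overlaps another gene, and 0% of its 100-base stretches occur elsewhere. The value was lowest without siRNA library 2 (-4.09) and nearest to 0 without control 2 (-2.61). Leaving out any single library took Hes1 out of the genes past the threshold.

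Hey1 encodes a related repressor (ENSMUSG00000040289, chromosome 3, 8663359 to 8667256). It had 3.10, 3.51 and 4.82 CPM in Son siRNA libraries 1 to 3, against 1.61, 2.02 and 4.53 CPM in controls 1 to 3. Control 3 lay within the siRNA range, so the groups overlapped, and the log2 fold change was 0.49 (SE 0.502). It was 1.07 without control 3 and 0.22 without control 1. The ratio of Hes1 to Hey1 per length was 1.18, 2.73 and 0.616 in Son siRNA libraries 1 to 3, against 19.0, 50.8 and 7.83 in controls 1 to 3. In siRNA library 3 the level of Hes1 was thus below that of Hey1, which no control library showed.

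Hes6 encodes a family member that in mouse counteracts HES1 (ENSMUSG00000067071, chromosome 1, 91411483 to 91414038). It had 0.157, 0.273 and 0.650 CPM in Son siRNA libraries 1 to 3, against 0, 2.49 and 0 CPM in controls 1 to 3. Control 2 held all control counts of Hes6, and a count of 0 in controls 1 and 3 allows up to 0.125 CPM in each. The log2 fold change was -1.20 (SE 1.95), an average over a control group in which only control 2 had counts. It gives no direction: the fitted value turned positive without control 2 (8.35) and with the replicate number as a block (4.04).

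Hes1 and Notch1 ordered the libraries in a similar way. Control 2 was the highest library and Son siRNA library 3 the lowest for both genes, and within each group replicate 2 was the highest. Control 2 was also the highest library for Hes6. In controls the SD of log2 CPM was 0.951 for Hes1, 0.778 for Hey1, 1.24 for Jag1 and 1.04 for Maml1, against 0.128 for Rbpj and 0.302 for Notch2. After siRNA the SD was 0.899 for Hes1, 0.327 for Hey1, 0.393 for Jag1 and 0.0588 for Maml1, with 0.270 for Rbpj and 0.282 for Notch2.

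**Figure D3:**
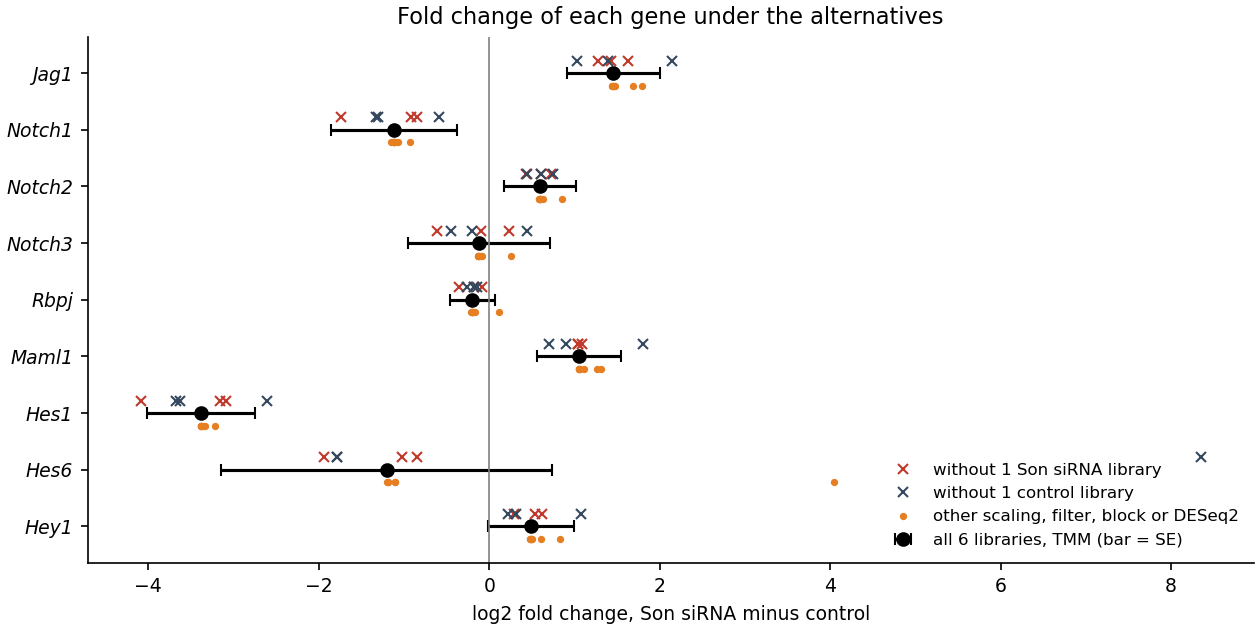
Log2 fold change of each gene, Son siRNA minus control, with all 6 libraries (black, bar = SE), without 1 library (crosses) and with other scalings, filters, the replicate block or DESeq2 (orange). Hes1 stays between -4.09 and -2.61, and Jag1 between 1.03 and 2.15. The Hes6 value of 8.35 comes from the fit without control 2, in which the remaining controls hold no counts, and is no estimate of size. The Hes6 value of 4.04 comes from the replicate block.

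Per length, Hes1 ranked 1 of the 9 genes in controls and 4 after siRNA. In controls it had 23.2 ± 16.6 CPM per kb, above 86.3% of the tested genes, and its lowest control (12.6 CPM per kb) exceeded every Rbpj value. After siRNA it had 2.23 ± 1.50 CPM per kb, above 58.3% of the tested genes. The order after siRNA was Jag1 (5.51 ± 1.42 CPM per kb), Rbpj (4.50 ± 0.857), Maml1 (2.86 ± 0.115), Hes1, Hey1 (1.57 ± 0.371), Notch2 (0.314 ± 0.0618), Hes6 (0.229 ± 0.164), Notch3 (0.0881 ± 0.0506) and Notch1 (0.0650 ± 0.0397). Of these neighbours, only Rbpj and Maml1, and Hey1 and Notch2, had ranges over the 3 libraries that did not overlap. In controls the order was Hes1, Rbpj (5.16 ± 0.448 CPM per kb), Jag1 (2.01 ± 1.46), Maml1 (1.37 ± 0.986), Hey1 (1.12 ± 0.652), Hes6 (0.528 ± 0.914), Notch2 (0.208 ± 0.0425), Notch1 (0.141 ± 0.0747) and Notch3 (0.0958 ± 0.0564). Only Hes1 and Rbpj, and Rbpj and Jag1, did not overlap there. The separations of Rbpj from Maml1 after siRNA and from Jag1 in controls depended on the length used, as given below.

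The receptors sat far below the median gene. The median of 17658 tested genes with a length was 1.33 CPM per kb after siRNA and 1.27 CPM per kb in controls. Notch2 was above 26.7% of the tested genes after siRNA and 22.1% in controls, and Notch1 above 6.48% after siRNA and 16.6% in controls. With the union of all exons as length, Maml1 moved above Rbpj after siRNA, and Notch3 moved above Notch1 in controls.

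**Figure D4:**
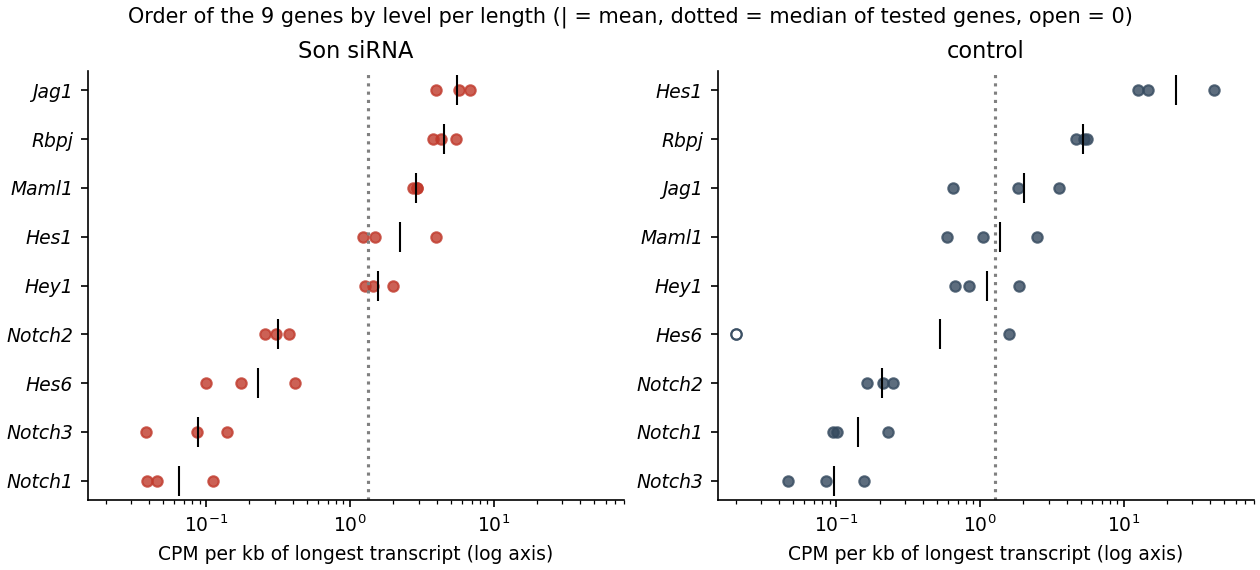
Level per kb of the longest transcript for the 9 genes, ordered from high to low within each group, Son siRNA at left and control at right, on a log axis. Dots are libraries and ticks are means, and the dotted line is the median of the tested genes. Hes1 ranks 4 after siRNA and 1 in controls, and the receptors lie below the median in both groups.

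Genes were also ranked by how like those of Hes1 their values over the 6 libraries were. The top 5 had their highest value in control 2, as Hes1 did, which this choice favours. The share of all genes with their highest value in control 2 was not counted. The ranking took genes with a mean of at least 5 CPM. It left out annotated pseudogenes, the selected Notch genes, and genes with Gm-numbered, Rik, accession-style, dotted or -ps names. By Pearson correlation of log2 CPM, the top 5 among the genes kept were D5Ertd577e (r = 0.991), Nipal1 (0.991), Taf6 (0.987), Arhgap18 (0.987) and Ruvbl2 (0.985). Genes left out may have been as like Hes1. The 6 libraries fall into 2 groups, so r mostly reflects the difference between the groups and is given as a description. Nipal1, a magnesium transporter-like gene, had 254, 361 and 259 CPM in Son siRNA libraries 1 to 3, against 635, 957 and 749 CPM in controls 1 to 3. Ruvbl2, which encodes an ATPase of chromatin-remodelling complexes, had 7.44, 12.8 and 7.92 CPM after siRNA, against 32.5, 54.4 and 23.9 CPM in controls. Their log2 fold changes were -1.42 and -1.98, smaller in size than that of Hes1.

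Of the other genes of the pathway, Myc fell, and it was the only gene past the threshold in either direction. A list of 92 symbols was drawn up from the known roles of the genes. It matched 91 genes, and 75 of them passed the filter. By edgeR's test over all genes 1 of the 75 was lower and 0 were higher, where 0.899% of all tested genes were lower and 0.0899% higher. At an unadjusted p under 0.05 there were 8 lower and 3 higher of the 75, where 8.86% of all tested genes were lower and 5.88% higher. With total-count scaling these counts were 5 lower and 11 higher, where 4.45% of all tested genes were lower and 10.9% higher. DESeq2 called 6 of the 75 lower and 0 higher, where it called 4.63% of all tested genes lower and 2.28% higher. Fold changes were below 0 for 32 and above 0 for 43, with a median log2 fold change of 0.03 against 0.02 over all genes. Groups did not overlap for 8 genes higher (10.7% of the 75) and 10 lower (13.3%) after siRNA, near the 12.1% higher and 11.6% lower of all tested genes. The 16 genes below the filter, among them Dll1, Dll4, Hes5, Hes7 and Cdx2, reached at most 0.322 CPM in any library.

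Myc, a growth regulator and a direct Notch target in T cells, had 5.32, 7.36 and 8.03 CPM in Son siRNA libraries 1 to 3, against 48.3, 48.5 and 35.8 CPM in controls 1 to 3. All 3 siRNA libraries were below every control, and the spread within each group was small. The mean was 6.90 ± 1.41 CPM after siRNA and 44.2 ± 7.27 CPM in controls (SD, n = 3 each), a log2 fold change of -2.68 with an SE of 0.303 (adjusted p = 0.0122, edgeR). Without siRNA library 1, 2 or 3 Myc missed the threshold (adjusted p = 0.171, 0.0716 and 0.149, edgeR), with log2 fold changes of -2.52, -2.73 and -2.80. Of 11 tested target genes Myc was the only one past. Fold changes were below 0 for 4 of these 11 and above 0 for 7, with a median log2 fold change of 0.40. Groups did not overlap for 2 of the 11 higher and 4 lower after siRNA. The 2 higher were Nrarp (log2 2.04, SE 0.910, edgeR adjusted p = 0.342) and Ccnd1 (log2 0.96, SE 0.434, edgeR adjusted p = 0.347). Nrarp reached at most 2.06 CPM in any library, and 79.4% of its exonic bases overlap Gm38287. Of all tested genes 12.1% were higher and 11.6% lower without overlap. Snai1, a repressor of epithelial genes, had a log2 fold change of -1.50 (edgeR adjusted p = 0.235), with 1.46, 0.820 and 0.959 CPM after siRNA and 2.04, 4.65 and 2.47 CPM in controls.

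Ligand, receptor and processing genes outside the 9 were not past the threshold. Of 4 tested ligand genes, all had a fold change above 0, as 9119 of all 17788 tested genes did. At an unadjusted p under 0.05 by edgeR, 0 of these 4 were higher. The 4 include Jag2, another Jagged ligand (log2 0.62, SE 0.655, edgeR adjusted p = 0.743), and Dner (log2 0.53, SE 0.582, edgeR adjusted p = 0.757). Notch4 reached at most 0.583 CPM in any library (log2 -1.79, SE 1.19). Of 14 genes for cleavage and glycosylation, 7 had a fold change below 0 and 7 above. Ncstn, which encodes the gamma-secretase subunit nicastrin, had 0.553, 0.367 and 1.13 CPM in Son siRNA libraries 1 to 3, against 4.46, 2.42 and 4.08 CPM in controls 1 to 3. The groups of Ncstn did not overlap, and its log2 fold change of -2.42 (SE 0.590) had an edgeR adjusted p of 0.0985 and was called by DESeq2 (adjusted p = 0.00259). Aph1b, another gamma-secretase subunit gene, had a log2 fold change of 1.76 with an SE of 0.905 (adjusted p = 0.415, edgeR), with 1.16 without siRNA library 2 and 2.33 without control 3. Reads may be split between Aph1b and its close copy Aph1c.

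Of 11 tested genes that regulate receptor turnover, 4 had a fold change below 0 and 7 above, and 0 passed the threshold by edgeR. The unadjusted p was under 0.05 for 1 lower and 1 higher gene, where 8.86% of all tested genes were lower and 5.88% higher. Itch, an E3 ubiquitin ligase that acts on Notch, had 170, 158 and 153 CPM in Son siRNA libraries 1 to 3, against 240, 214 and 295 CPM in controls 1 to 3 (log2 -0.64, SE 0.205, edgeR adjusted p = 0.187). Neurl1b, which encodes a Neuralized-type E3 ligase for ligands, had 0.149, 0.0940 and 0.491 CPM after siRNA and 0 in all 3 controls. These are 18, 11 and 65 units in Son siRNA libraries 1 to 3, so library 3 held most of them and library 2 lay under the floor of 12 units a library (edgeR adjusted p = 0.142).

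Of 18 tested genes for nuclear cofactors, 8 had a fold change below 0 and 10 above, with a median log2 fold change of 0.01. Hdac1, a histone deacetylase of corepressor complexes, had 50.9, 45.1 and 58.4 CPM in Son siRNA libraries 1 to 3, against 102, 110 and 99.9 CPM in controls 1 to 3. Its groups were far apart for their spread, and its log2 fold change of -1.01 (SE 0.216) had an edgeR adjusted p of 0.0700. Counts divided by 4 (edgeR adjusted p = 0.0490) and DESeq2 (adjusted p = 0.000723) put Hdac1 past the threshold. Ccnc, which encodes cyclin C and acts with CDK8 in turnover of the Notch intracellular domain in human cells, had 107, 152 and 138 CPM after siRNA and 256, 178 and 320 CPM in controls. Its log2 fold change was -0.93 with an SE of 0.265 (adjusted p = 0.140 by edgeR and 0.0337 by DESeq2).

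Among other repressors, corepressors and helix-loop-helix partners, 0 passed edgeR's test over all genes. Of 4 tested Hes/Hey relatives, Bhlhe41 had 6.68, 3.56 and 3.48 CPM in Son siRNA libraries 1 to 3, against 1.28, 3.42 and 0.997 CPM in controls 1 to 3 (log2 1.27, SE 0.576, edgeR adjusted p = 0.349). Without control 2 the value of Bhlhe41 was 2.01. Of its exonic bases 19.0% overlap Gm43909. Bhlhe40 stayed under 2 CPM in every library (log2 -1.21, SE 1.19, edgeR adjusted p = 0.714), and its value was -0.03 without control 2 and -2.25 without siRNA library 1. Of 5 tested genes of the Groucho/Tle family, Tle4 had 19.4 ± 1.73 CPM after siRNA and 37.1 ± 9.96 CPM in controls. The log2 difference of Tle4 was -0.94 (adjusted p = 0.166 by edgeR and 0.0266 by DESeq2). Tle6, which encodes a protein of the maternal subcortical complex in oocytes, had 8.88 ± 1.32 CPM after siRNA and 4.75 ± 0.153 CPM in controls, a log2 difference of 0.90 (adjusted p = 0.232, edgeR). Of 7 tested genes for E proteins and their Id inhibitors, Id3 had 39.3, 38.3 and 22.4 CPM in Son siRNA libraries 1 to 3, against 67.7, 116 and 73.8 CPM in controls 1 to 3 (log2 -1.37, SE 0.320, adjusted p = 0.0901 by edgeR and 0.00172 by DESeq2). Id2 had 9.42, 8.38 and 5.74 CPM after siRNA and 3.69, 36.8 and 13.4 CPM in controls, and the groups overlapped (log2 -1.19, SE 0.680, edgeR adjusted p = 0.472). The value of Id2 rested on control 2, without which it was -0.12. For Id2 and Id3, as for Hes1, control 2 was the highest library.

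**Figure D5:**
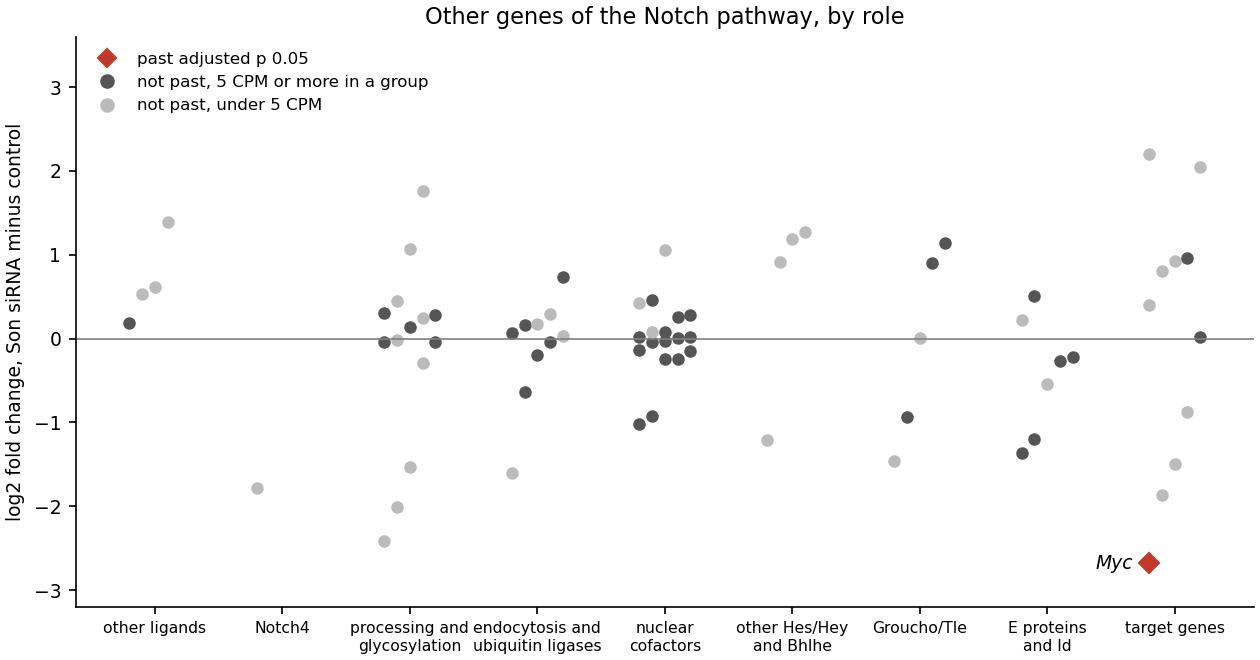
Log2 fold change, Son siRNA minus control, of the tested pathway genes other than the 9, grouped by role. Neurl1b is left out because it was 0 in all controls. Myc, at -2.68, is the only gene past an adjusted p of 0.05. Light grey marks genes under 5 CPM in both groups.

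Markers of cells that can accompany an embryo were checked, because ovarian somatic cells also use Notch signalling. Of 17 cumulus and granulosa markers, 7 were at 0 in all libraries, among them the defining genes Fshr, Foxl2 and Inha, and 3 reached 1 CPM in any library. The summed level of the list was 89.1 to 93.7 CPM after siRNA and 111 to 151 CPM in controls, and most of it was Nr5a2, also known from embryos, with 63.5 to 68.4 CPM after siRNA and 103 to 138 CPM in controls. Amhr2 went the other way, with 19.7, 24.1 and 27.6 CPM in Son siRNA libraries 1 to 3, against 11.9, 17.1 and 6.53 CPM in controls 1 to 3, without overlap. Without both genes the list summed to 0.514 to 1.91 CPM after siRNA and 1.02 to 1.69 CPM in controls. Of 8 sperm markers 4 were at 0 in all libraries, and their sum was 0.151 to 0.905 CPM after siRNA and 0.194 to 1.14 CPM in controls. Of 10 blood and endothelial markers 4 were at 0 in all libraries, Ptprc and Cd34 among them. Their sum was 15.4 to 16.8 CPM after siRNA and 19.5 to 30.9 CPM in controls, mainly Pecam1 and the alpha-globin genes. Without Pecam1 the sum was 10.2 to 11.4 CPM after siRNA and 6.95 to 12.02 CPM in controls. Without Pecam1 and Hba-a1 it was higher after siRNA, at 4.15 to 4.62 CPM against 2.22 to 2.81 CPM in controls. Of the 10 genes 3 were higher without overlap after siRNA, Hba-a2 among them, and 1 was lower, Pecam1. In all 6 libraries the oocyte-derived list was present, with a sum of 1846 to 2253 CPM after siRNA and 2467 to 3237 CPM in controls, most of it Ccnb1. Without Ccnb1 the direction was the opposite, with 519.9 to 696 CPM after siRNA and 313 to 453 CPM in controls. Of the 20 genes 6 were higher without overlap after siRNA, among them Zp3 and Oosp1, and 1 was lower. Of all tested genes 12.1% were higher without overlap and 11.6% lower. The sum over 2-cell-stage genes was 1041 to 1170 CPM after siRNA, and 1513, 2014 and 2683 CPM in controls 1 to 3, carried by Eif1a and Sp110. Without these genes the groups overlapped, at 157 to 212 CPM after siRNA and 143 to 465 CPM in controls. Of the 19 genes 2 were higher without overlap after siRNA, Zscan4c and Zscan4d, and 3 were lower. The shares over all tested genes are again 12.1% higher and 11.6% lower. Control 3, highest in the 2-cell-stage list, was the control with the highest Jag1 and Hey1 values, whereas control 2 had the highest Hes1. The part of these differences between libraries in the Notch values was not tested.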

How the data were processed

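Transcript levels were measured in 3 Son siRNA and 3 control libraries of 4-cell mouse embryos, grouped by their titles. HISAT2 2.0.5, StringTie 1.3.3b and the GRCm38 build are named in the submitters' processing notes. For the annotation release, counting script and filters the sources used here give nothing. Deposited by the authors was 1 table per library with a whole-number estimated count for each of 46072 genes, not normalized. About 4 units were taken to equal 1 read pair, an assumption from the steps between low values. Counts were used as deposited in edgeR 4.0.16 (R 4.3.3) with filterByExpr and TMM scaling. The quasi-likelihood test (glmQLFit, glmQLFTest) compared Son siRNA with control over all genes, without a block, and Benjamini-Hochberg adjustment at 0.05. Each SE of a log2 fold change was back-calculated, as the absolute fold change over the square root of that test's F statistic. edgeR does not report it. DESeq2 1.42.0, other scalings and filters, counts divided by 4, a replicate block and leaving out each library were alternatives. The fit was tested on simulated data. Coordinates, lengths and overlaps came from GENCODE vM21 (GRCm38), which matched 45223 genes by Ensembl identifier.

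The 9 genes and all lists were chosen with earlier results of these data known. Pathway genes were named by a rule, as those past the threshold and up to 2 per role with the smallest p. Son and the 5 ranked genes most like Hes1 were named too. Aph1c, Nrarp and Ccnd1 were named outside this rule after their values were seen. Genes named as absent or as markers were chosen after their values were seen, as were the windows to print and the sums of lists without their most abundant genes. Floors reflect counting error alone: PCR copies were not marked by molecular identifiers, so reads are not independent molecules.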

Additional observations from a re-analysis of the deposited data

How the results depend on the processing

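Over 14 alternatives, 118 of 124 fold changes of the 9 genes kept their direction. The 6 that turned were Notch3 with total-count scaling (0.25), without siRNA library 2 (0.23) and without control 1 (0.44), Rbpj with total-count scaling (0.11), and Hes6 with the replicate number as a block (4.04) and without control 2 (8.35), where the controls left hold no Hes6 counts. Leaving out 1 library gave -0.61 to 0.44 for Notch3 and -1.94 to 8.35 for Hes6. Hes6 had no value with the stricter filter or with counts divided by 4. All 248 fold changes of Son and the pathway genes named by the rule kept their direction. With no filter 91 genes were lower and 9 higher, with total counts 35 and 7, with the stricter filter 245 and 43, with counts divided by 4 279 and 51, and with DESeq2 823 and 405. No filter and total counts each left 0 of the 9 genes lower by edgeR, with Hes1 lost and 1 at an unadjusted p under 0.05. Counts divided by 4 gave 2 other pathway genes lower and DESeq2 6. Leaving out 1 library left 0 to 231 lower and 0 to 84 higher genes, 0 of the 9 genes lower (1 at an unadjusted p under 0.05 by edgeR each time) and 0 to 1 other pathway genes lower. With the replicate block edgeR called 0 genes, Hes1 and Myc included (1110 lower and 887 higher at an unadjusted p under 0.05, 1 and 2 of the 9 genes, 7 and 3 of the other pathway genes). The labels do not say whether libraries of the same number were paired. Their deviations from the group means correlated at -0.27, -0.33 and 0.02, which cannot settle it with 3 libraries per group. With total counts the other pathway genes numbered 5 lower and 11 higher at an unadjusted p under 0.05, against 8 and 3 with TMM. Notch1, Notch3 and Hes6 each had under 3 CPM in every library, so their values rest on few reads.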
